A study of Mus musculus with 20 samples.

Results

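The genes described here are 10 members of a progenitor state of connective-tissue fibroblasts that is named after its surface proteins Dpp4 and Pi16. They were taken as a list of symbols (Dpp4, Pi16, Sema3c, Cd248, Ackr3, Dact2, Efhd1, Anxa3, Limch1 and Uchl1), drawn up with earlier results of these data known, and are 10 of the 24446 symbols in the count tables of the 3 days. All 10 were found in each table, and all 10 passed the filter on low counts at each day. The cells were fibroadipogenic progenitors (FAPs), mesenchymal stromal cells that give rise to the fibroblasts and fat cells of muscle, sorted fresh from the hindlimb muscle of male C57BL/6J mice. KPC mice carried a tumour from KPCY cells, a mouse pancreatic tumour line, given into the pancreas (2 M cells in 50 µL), and control mice had sham surgery without tumour cells. Muscle was taken at day 14 (3 control and 4 KPC libraries), day 21 (3 and 3) or day 26 (4 and 3), and the labels call the libraries of a group biological replicates. The age of the mice is not given in the sources used here, and 1 tumour line stands for the disease in all KPC groups. The sort kept live nucleated cells that carried SCA-1 and lacked CD31, CD45 and α7-integrin.

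In many tissues, fibroblasts that carry Dpp4 and Pi16 lie in the fascia and in the adventitia around vessels, and single-cell studies place them early in the lineage that gives rise to more specialised fibroblasts and adipocytes. In muscle they are usually set against a second FAP state, marked by Cxcl14 and Smoc2, that lies between the fibres. The 10 genes have unlike functions. They encode a surface peptidase (Dpp4), a surface protein of the CAP family (Pi16), a secreted guidance cue (Sema3c), 2 other surface proteins (Cd248 and Ackr3) and 5 intracellular proteins that act in Wnt signalling, calcium binding, membrane binding, the cytoskeleton and ubiquitin turnover.

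Promoter sequences are shown for Dact2, Efhd1 and Pi16, which with Cd248 had the deepest falls at day 21, and for Dpp4, which gives the state its name and was called at day 14 but not at day 21. Each is the 250 bases before the RefSeq start site in build GRCm38.p6, written 5′ to 3′ on the gene's own strand. Capitals mark the letters GGGCGG of the GC box, those of the box named CCAAT, and the letters TATAAA of the TATA motif, each read on both strands.
Dact2 promoter, chr17:14203832-14204081, minus strand: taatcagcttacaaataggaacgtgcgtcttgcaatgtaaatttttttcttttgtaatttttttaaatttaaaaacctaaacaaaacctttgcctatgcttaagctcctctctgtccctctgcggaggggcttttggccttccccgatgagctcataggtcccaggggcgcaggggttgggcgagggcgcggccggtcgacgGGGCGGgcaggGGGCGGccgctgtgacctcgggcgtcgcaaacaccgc
Efhd1 promoter, chr1:87264103-87264352, plus strand: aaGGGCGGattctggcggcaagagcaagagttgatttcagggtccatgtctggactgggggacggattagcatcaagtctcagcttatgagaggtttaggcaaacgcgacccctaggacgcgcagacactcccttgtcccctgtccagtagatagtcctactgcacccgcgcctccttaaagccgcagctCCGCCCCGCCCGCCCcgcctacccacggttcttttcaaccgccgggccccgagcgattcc
Pi16 promoter, chr17:29318632-29318881, plus strand: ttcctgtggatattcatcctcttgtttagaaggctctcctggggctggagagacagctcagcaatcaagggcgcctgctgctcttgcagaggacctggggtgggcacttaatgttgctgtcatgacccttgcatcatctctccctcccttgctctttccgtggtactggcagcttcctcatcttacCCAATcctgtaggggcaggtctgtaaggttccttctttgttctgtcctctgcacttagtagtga
Dpp4 promoter, chr2:62412232-62412481, minus strand: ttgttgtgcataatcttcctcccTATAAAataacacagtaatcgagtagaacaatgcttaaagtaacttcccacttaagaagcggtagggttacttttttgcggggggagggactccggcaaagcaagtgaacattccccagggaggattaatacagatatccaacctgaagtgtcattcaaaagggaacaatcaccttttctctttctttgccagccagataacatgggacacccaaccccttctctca

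Motif and CpG content varied among the promoters. Of the 10 genes, 8 had a RefSeq promoter window (250 bases before to 50 after a start), and Cd248 and Anxa3 are named only. Limch1 had 3 windows and every other matched gene 1. The GC box was found in 5 of the 10 windows (Sema3c, Dact2, Efhd1, Ackr3 and Limch1). Of all 32851 mouse windows of the same length, 35.7% held it. The CCAAT box was found in 3 of the 10 windows (Pi16, Ackr3 and Limch1), against 37.4% of all windows. The letters of the TATA motif were found in 3 of the 10 (Dpp4, Ackr3 and Limch1), against 13.6%. Counted from the start site, they began at -227 in Dpp4, -8 in Ackr3 and -76 in Limch1. CpG pairs numbered 42 in the Sema3c window, 24 in that of Efhd1 and 23 in that of Dact2, but 4 in that of Dpp4 and 3 in that of Pi16, and the median over all windows was 7. Motifs of AP-1 (TGANTCA), STAT factors (TTCNNNGAA) and TCF/LEF (CTTTGAT) had no match in any of the 10 windows, and they were found in 7.81%, 8.30% and 3.73% of all windows. The motif of the glucocorticoid receptor (ACANNNTGT) was found in 1 gene, Limch1, and in 6.85% of all windows. Those of TEAD (GGAATG, in Dpp4) and SMAD (CAGACA, in Efhd1) were each found in 1 gene, against 14.7% and 21.0% of all windows. That of C/EBP (TTGCNNAA) was found in Efhd1 and Ackr3, against 10.8%. The E-box (CANNTG) was found in 7 of the 10 windows, those of 5 genes, against 72.3% of all windows. A match is a run of letters and does not show that a factor binds there.

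Depth was 12.9 to 26.4 M (megacounts) a library. Pdgfra, the usual FAP marker, lay between 1198 and 1669 CPM (counts scaled to the same library total) over all 20 libraries, on a scale common to them, and was not called at any day, and Ly6a, which encodes SCA-1, lay between 526 and 1460.2 CPM. Transcripts of the genes behind the excluded antigens were low, with Ptprc (CD45) at 0.0401 to 5.75 CPM and Itga7 at 1.83 to 18.7 CPM, while Pecam1 (CD31) ran from 4.50 to 242 CPM. Itga7 was called higher in KPC at day 14 and Pecam1 at day 21, so these transcripts differed between the groups. Whether the purity of the sort differed with them was not tested. KPC replicate 3 of day 26 stood apart from the other KPC libraries of its day, and results at that day are given with and without it. The leading number of the library codes, whose meaning is not given in the sources used here, differs between all control and all KPC libraries at day 14 and at day 21, so at those days whatever it marks and the tumour cannot be told apart.

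All 10 genes had lower mean levels in KPC than in control FAPs at all 3 days. At day 14 the 10 genes had a median log2 fold change of -0.31, and 1 gene, Dpp4, fell. At day 21 the median was -1.11, and 7 genes fell: Efhd1, Pi16, Limch1, Sema3c, Cd248, Dact2 and Uchl1. At day 26 the median was -1.47, with 2 of the 3 KPC libraries very low, and no gene passed the test. The median over all genes tested was 0.0072, 0.0091 and -0.0029 at the 3 days. In sorted bulk RNA, fewer cells of the state and less RNA of these genes per cell cannot be told apart.

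These counts were read against the share of all genes called in the same comparison by edgeR's quasi-likelihood test at an adjusted p under 0.05. At day 14, 0.435% of the 13344 genes tested were called lower and 0.682% higher, against 1 lower and 0 higher of the 10 genes. Every KPC library lay below every control library in 3 of the 10 genes at day 14 (Dpp4, Pi16 and Dact2), and in 5.83% of all genes tested. At day 21, 6.11% of 13154 genes were called lower and 6.38% higher, against 7 lower and 0 higher of the 10. The groups did not overlap at that day in 9 of the 10 genes, all but Dpp4, and KPC lay below control in this way in 17.2% of all genes. At day 26, 0% of 13157 genes were called, and the 3 KPC libraries lay below all 4 controls in all 10 genes, against 14.5% of all genes.

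**Figure D1:**
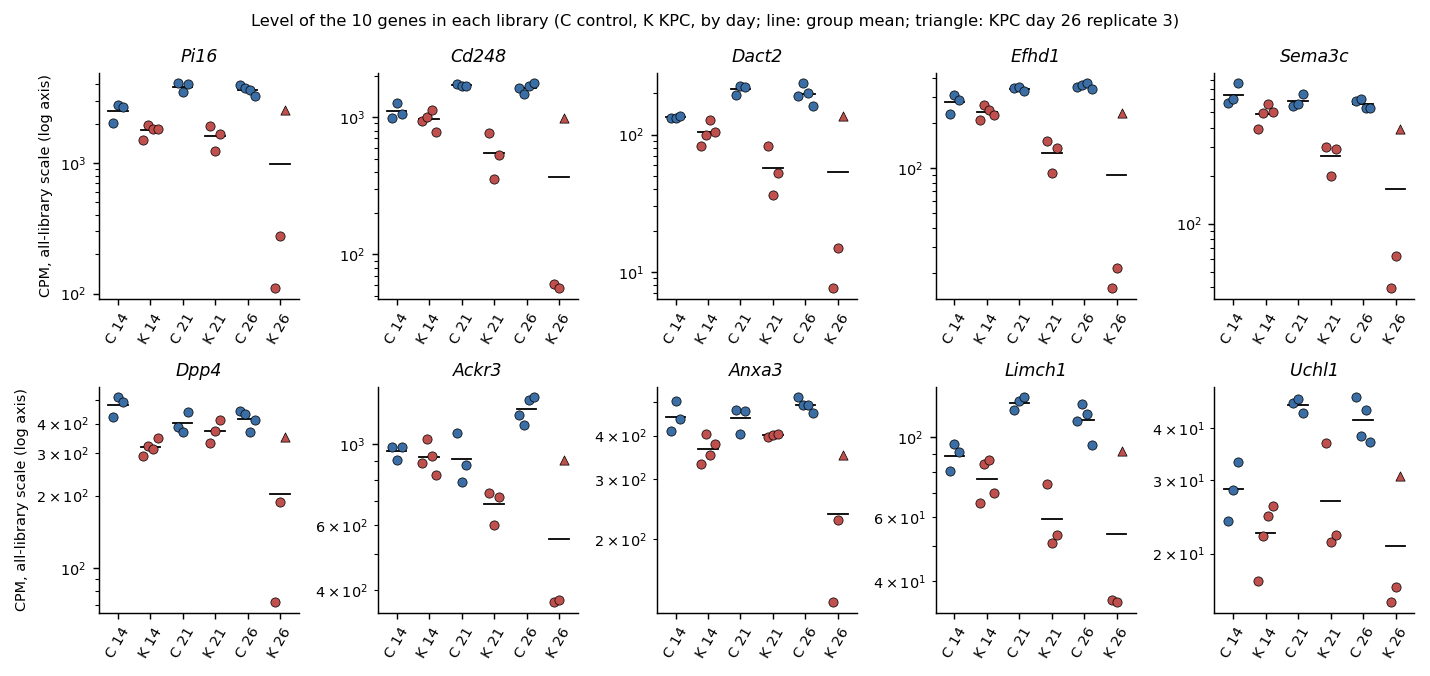
Level of each of the 10 genes in each of the 20 libraries, in CPM on a scale common to all libraries and on a log axis; points are libraries, lines are group means, blue is control and red KPC, and the triangle is KPC replicate 3 of day 26. For Pi16, Cd248, Dact2, Efhd1 and Sema3c the KPC libraries of day 21 lie below all controls of that day, and at day 26 KPC replicates 1 and 2 lie far below every other library.

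Dpp4 (chromosome 2, chr2:62330073-62412231 in mm10, GENCODE vM21) encodes the surface peptidase CD26, which trims the ends of peptide hormones and chemokines. Its level at day 14 was 435, 529 and 505 CPM in controls 1 to 3 and 304, 338, 322 and 356 CPM in KPC replicates 1 to 4. The highest KPC library lay below the lowest control, and Dpp4 fell by 0.57 on the log2 scale (SE 0.11, adjusted p 0.0299). That call was lost when control 2, control 3, KPC replicate 1 or KPC replicate 2 was left out, with adjusted p-values of 0.0552, 0.119, 0.0827 and 0.0798, while the gene kept its direction. At day 21 the groups overlapped, with 381, 364 and 445 CPM in controls and 327, 363 and 408 CPM in KPC (log2 -0.12 ± 0.12, adjusted p 0.583). At day 26 the controls lay at 444, 430.1, 364 and 400.1 CPM and the KPC libraries at 71.6, 179 and 348 CPM. Replicate 3 was just below the lowest control there, and the fitted difference of -1.04 ± 0.45 was not called (adjusted p 0.146). Dpp4 was thus the one member called at day 14 and, with Ackr3 and Anxa3, one of the 3 that were not called at day 21.

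Pi16 (chr17:29317680-29330593) encodes peptidase inhibitor 16, a protein of the CAP superfamily that is tethered to the cell surface and marks adventitial fibroblasts. It lay at 2075, 2872 and 2729 CPM in controls and 1568, 2061, 1890.1 and 1854 CPM in KPC at day 14. The groups just failed to meet, and the difference of -0.47 ± 0.13 (log2) was not called (adjusted p 0.101). At day 21 controls held 4017, 3426 and 3979 CPM and KPC libraries 1889.7, 1214 and 1639 CPM. The highest KPC library held 55.2% of the lowest control, and Pi16 fell to 41.5% of its control level (log2 -1.27 ± 0.16, adjusted p 0.000457). The day 26 controls lay at 3877, 3691, 3556 and 3169 CPM, and KPC at 109, 262 and 2539.5 CPM. KPC replicate 1 held 3.06% of the control mean, replicate 2 7.34% and replicate 3 71.1%, and the difference over all 3 was -1.88 ± 0.95 (adjusted p 0.19).

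Sema3c (chr5:17574281-17730268) encodes a secreted class 3 semaphorin, a guidance cue that signals through neuropilin and plexin receptors. At day 14 its range was 578 to 772 CPM in controls and 405 to 578 CPM in KPC, so the groups touched (log2 -0.39 ± 0.14, adjusted p 0.193). At day 21 it lay at 535, 557 and 638 CPM in controls and 298, 193 and 289 CPM in KPC. The groups were far apart, and Sema3c fell to 45.1% of control (log2 -1.15 ± 0.16, adjusted p 0.00103). At day 26 KPC replicates 1 to 3 held 39.2, 60.1 and 386 CPM, against 516 to 593 CPM in controls (log2 -1.77 ± 0.73, adjusted p 0.134).

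Cd248 (chr19:5068078-5070682, a gene with 1 exon) encodes endosialin, a membrane glycoprotein of stromal cells and pericytes that binds matrix proteins. Its groups overlapped at day 14, with 1008, 1308 and 1072 CPM in controls and 977, 1048, 1166 and 796 CPM in KPC (log2 -0.18 ± 0.14, adjusted p 0.613). At day 21 the 3 controls lay close together at 1724, 1671 and 1667 CPM, and the KPC libraries lay at 755, 346 and 524 CPM. Cd248 fell to 32.1% of control there (log2 -1.64 ± 0.24, adjusted p 0.00391), with the lowest value in KPC replicate 2. At day 26 KPC replicates 1 to 3 held 60.7, 54.1 and 977 CPM and the controls 1607, 1464, 1669.6 and 1709.8 CPM (log2 -2.15 ± 0.98, adjusted p 0.16).

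Ackr3 (chr1:90203980-90216751) encodes an atypical chemokine receptor that takes up and removes Cxcl12 without classical G-protein signalling. It was the member with the smallest difference at day 14, where the groups overlapped at 935 to 1008 CPM in controls and 839 to 1085 CPM in KPC (log2 -0.043 ± 0.11, adjusted p 0.917). At day 21 it lay at 1057, 778 and 869 CPM in controls and 726, 589.7 and 703 CPM in KPC. The groups did not overlap, but the difference of -0.42 ± 0.14 was not called (adjusted p 0.0632), and it was called without KPC replicate 1 (log2 -0.48, adjusted p 0.0304). At day 26 the KPC libraries held 369, 358 and 902 CPM and the controls 1178, 1113, 1304 and 1306 CPM (log2 -1.17 ± 0.36, adjusted p 0.0816).

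Dact2 (chr17:14195052-14204304) encodes a dishevelled-binding protein that dampens Wnt and TGF-β family signalling. At day 14 its KPC libraries, at 85.2, 104, 133 and 107 CPM, lay below the controls, at 134, 136 and 140.3 CPM, by a narrow gap (log2 -0.35 ± 0.13, adjusted p 0.219). Its day 21 levels were 192, 222 and 221 CPM in controls and 81.2, 35.5 and 51.2 CPM in KPC. Among the 10 genes this was the largest fold change of that day, a fall to 26.5% of control (log2 -1.92 ± 0.28, adjusted p 0.00616). At day 26 it lay at 7.58, 14.4 and 136 CPM in KPC and at 188, 231, 199 and 156 CPM in controls (log2 -1.88 ± 0.88, adjusted p 0.168).

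Efhd1 (chr1:87264363-87310839) encodes a calcium-binding protein with EF hands that is found at mitochondria. At day 14 the ranges overlapped, 235 to 317 CPM in controls and 219 to 277 CPM in KPC (log2 -0.21 ± 0.12, adjusted p 0.491). At day 21 controls held 338, 345 and 324 CPM and KPC libraries 149.5, 91.1 and 133 CPM. This gene had the smallest adjusted p of the 10 at that day, 0.000281, with a fall to 37.2% of control (log2 -1.43 ± 0.16). At day 26 it lay at 15.8, 20.6 and 232 CPM in KPC and at 325 to 363 CPM in controls (log2 -1.95 ± 0.88, adjusted p 0.156).

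Limch1 (chr5:66745827-67057158), whose product binds non-muscle myosin and acts in the actin cytoskeleton, fell at day 21 from 123 ± 5.36 CPM in controls to 58.4 ± 12.6 CPM in KPC (SD, n = 3 each; edgeR log2 -1.07 ± 0.14, adjusted p 0.000645). Uchl1 (chr5:66676091-66687234), a ubiquitin hydrolase best known from neurons, fell at day 21 from 44.8 ± 1.64 to 26.3 ± 8.64 CPM (SD, n = 3 each; edgeR log2 -0.77 ± 0.19, adjusted p 0.0255). The call of Uchl1 was lost when any control, KPC replicate 2 or KPC replicate 3 was left out, with adjusted p-values from 0.0719 to 0.0926. It has the largest adjusted p of the 7 and is the gene with the second-lowest counts per length, and it is the one member whose exons overlap another gene in the tables, Uchl1os on the opposite strand over 295 bases. Anxa3 (chr5:96793339-96845966), an annexin that binds membranes when calcium is bound, lay at 467, 398 and 466 CPM in controls and 390.3, 394 and 397 CPM in KPC at day 21. The highest KPC library was just under the lowest control, and the difference of -0.17 ± 0.11 was not called (adjusted p 0.324). At day 14 none of these 3 was called, with log2 differences of -0.20 ± 0.12 for Limch1, -0.33 ± 0.16 for Uchl1 and -0.29 ± 0.11 for Anxa3. At day 26 Limch1 held 35.4, 33.4 and 90.7 CPM in KPC, Uchl1 15.3, 15.9 and 30.4 CPM and Anxa3 131, 217 and 348 CPM, against control ranges of 92.2 to 121, 35.9 to 46.3 and 452 to 505 CPM.

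The 7 calls of day 21 rest on a fit of that day alone. In a single fit of all 20 libraries, which takes its spread from all days including day 26, 436 genes were called at day 21 and 1 of the 10 genes, Limch1 (log2 -1.06 ± 0.26, adjusted p 0.0344).

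At day 26 the 10 genes split the KPC libraries sharply. Relative to the control mean of that day, the median of the 10 genes was 12.3% in KPC replicate 1, 20.1% in replicate 2 and 71.7% in replicate 3. The KPC libraries of day 14 had medians of 68.1, 85.9, 88.9 and 78.2% of their controls, and those of day 21 had 55.6, 37.0 and 45.8%. Replicate 3 of day 26 thus lay in the range of day 14, but all 10 genes were still below every control library of day 26 in it. On a scale common to all libraries, 10, 10 and 4 of the 10 genes lay below all 10 controls of the 3 days in KPC replicates 1 to 3 of day 26, 9, 9 and 8 in those of day 21 and 9, 5, 4 and 8 in KPC replicates 1 to 4 of day 14. Of all 14141 genes, 32.3, 31.9 and 10.9% lay below all controls in the same libraries of day 26, 17.6, 22.7 and 15.6% in those of day 21 and 9.97, 10.3, 15.2 and 9.86% in those of day 14.

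With no gene called by edgeR at day 26, 5 of the 10 genes (Sema3c, Ackr3, Anxa3, Limch1 and Uchl1) had an unadjusted p under 0.05, as did 4508 of all genes, or 34.3%. DESeq2 gave no adjusted p for Pi16, Sema3c, Cd248 and Efhd1, called 4 of the other 6 (all but Dpp4 and Dact2) and 2762 genes in all, and limma-voom with quality weights called 10 and 4578, and the fit of all 20 libraries 10 and 4889. Without KPC replicate 3, edgeR called all 10 lower, against 25.9% of 13517 genes. That fit drops the KPC library with the highest values of all 10 genes, so it selects on the outcome and serves as a description of the other 2. In it, Cd248 stood at -4.83 ± 0.20 (log2), Pi16 at -4.28 ± 0.39, Efhd1 at -4.26 ± 0.18, Dact2 at -4.16 ± 0.30 and Sema3c at -3.49 ± 0.22. The other 5 genes had smaller differences, from -1.77 ± 0.17 for Ackr3 and -1.72 ± 0.34 for Dpp4 to -1.40 ± 0.15 for Uchl1. The 5 genes with the larger differences here are also 5 of the 7 called at day 21, a grouping seen after the values. Among the libraries of day 26 whose code starts with 227 (3 controls and KPC replicates 1 and 2), all 10 genes were called, from -4.77 ± 0.19 for Cd248 to -1.44 ± 0.14 for Uchl1, and 6287 genes in all. That subset also leaves out KPC replicate 3 and holds the same 2 KPC libraries, so it carries the same limit. Replicate 3 carries a code of its own, 226, so whatever the code marks and what sets this library apart cannot be told apart.

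**Figure D2:**
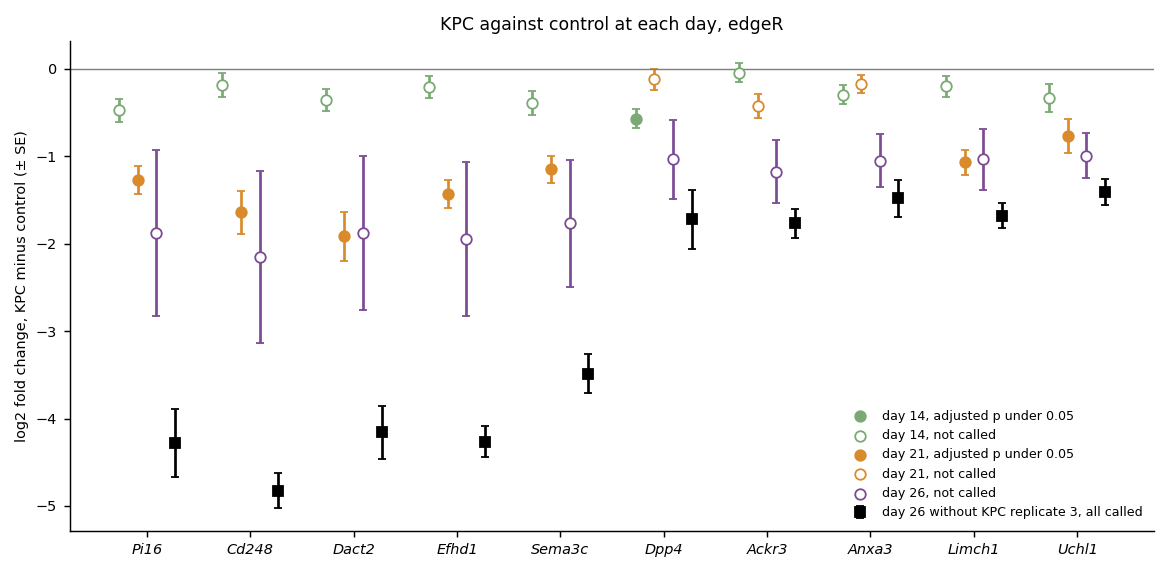
Log2 fold change of KPC against control for each gene at each day, with its SE; filled circles passed an adjusted p of 0.05, open circles did not, and black squares are day 26 without KPC replicate 3. All points lie below 0, Dpp4 is filled at day 14 but open at day 21, and the long error bars of day 26 shorten when KPC replicate 3 is left out.

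Contrasts in the fit of all 20 libraries asked whether the KPC effect itself changed from day to day. From day 14 to day 21 no member was called, against 0.644% of 14141 genes, and 1 member had an unadjusted p under 0.05, as did 15.1% of all genes. Limma-voom called 4 members and 13.6% of all genes, and DESeq2, which gave an adjusted p for 6 of the 10 genes in each contrast between days, called 0 members and 3.09% of the genes with an adjusted p. The largest of these contrasts were -1.54 ± 0.90 for Dact2 and -1.44 ± 0.98 for Cd248, and those of Dpp4 (0.47 ± 0.44) and Anxa3 (0.14 ± 0.30) pointed the other way. From day 14 to day 26, 1 member was called, against 14.3% of all genes. This was Ackr3, whose KPC effect was 1.12 lower on the log2 scale at day 26 (contrast -1.12 ± 0.33, adjusted p 0.0322), and the call was lost in 10 of the 14 fits that left out 1 library of either day. From day 21 to day 26 no gene was called at all (0%), and 3 members had an unadjusted p under 0.05, as did 12.9% of all genes. Limma-voom called 8 members and 7.59% of all genes there, and DESeq2 0 members and 0.334%. For the genes called at one day and not at another, edgeR called no difference between the days. That fit takes its spread from all days including day 26, so the absence of a call does not show equal effects.

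The control levels give the ground against which these differences were measured. Per kilobase of exon, on the common scale and over the 10 control libraries, Cd248 (576 ± 113 CPM per kb, SD) and Pi16 (529 ± 106) were the highest and did not differ beyond their spread. Ackr3 followed at 317 ± 55.9 CPM per kb, then Efhd1 at 153 ± 19.3 and Anxa3 at 128 ± 10.1, whose ranges overlapped. Sema3c (83.1 ± 9.50), Dpp4 (68.2 ± 7.80) and Dact2 (54.2 ± 11.9) each overlapped their neighbour, and Uchl1 (23.8 ± 5.0) and Limch1 (10.6 ± 1.64) lay lowest, without overlap between them. On the common scale, controls of day 21 lay above those of day 14 without overlap for Pi16, Cd248, Dact2, Efhd1, Limch1 and Uchl1. All of these were called at day 21, and their means follow in that order. Control means rose from 2499 to 3855, 1103 to 1709, 134 to 214, 275 to 340, 88.8 to 124 and 28.5 to 45.4 CPM. KPC means went from 1783 to 1609, 963 to 551, 104 to 56.9, 236 to 127, 76.6 to 59.5 and 22.4 to 26.7 CPM. The larger differences of day 21 thus include higher control means, whose part was not tested. The library codes of the controls also differ between these days (241 and 265). No member was called between the controls of day 14 and day 21 (8.51% of all genes were), day 21 and day 26 (0.0354%) or day 14 and day 26 (6.95%). These contrasts came from the fit of all 20 libraries, whose spread includes the KPC libraries of day 26. From day 14 to day 21 they were 0.63 ± 0.71 for Cd248 and 0.63 ± 0.67 for Pi16 (log2). The fit of day 14 alone had SEs of 0.14 and 0.13 for these 2 genes. The absence of a call therefore does not show that the controls were stable. At an unadjusted p under 0.05 there were 1, 0 and 1 members and 21.2, 4.53 and 21.2% of all genes. Limma-voom called 3, 0 and 5 members and 25.5, 1.47 and 30.4% of all genes, and DESeq2 called 1, 0 and 0 members and 13.4, 0.238 and 12.8% of the genes with an adjusted p.

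Because Dpp4 and Anxa3 had the smallest differences of the 10 genes at day 21, ratios of counts within a library were taken after the values were seen, which removes scaling between libraries. Per 100 counts of Pi16, the day 14 libraries held 21.0, 18.4 and 18.5 counts of Dpp4 in controls and 19.4, 16.4, 17.1 and 19.2 in KPC, so Dpp4 and Pi16 kept about the same proportion. At day 21 the ratio was 9.50, 10.6 and 11.2 in controls and 17.3, 29.9 and 24.9 in KPC, without overlap. At day 26 it was 11.4, 11.7, 10.2 and 12.6 in controls and 65.5, 68.3 and 13.7 in KPC, with replicate 3 just above the controls. Dpp4 therefore made up a larger share relative to Pi16 in the KPC libraries of days 21 and 26 than in their controls. The ratio in controls was itself lower at day 21 than at day 14, and the KPC range of day 21 overlapped that of the day 14 controls. The gap of day 21 thus includes the change between controls, whose part was not tested. In the same way Anxa3 per 100 Pi16 counts averaged 11.6 ± 0.0471 in controls and 25.8 ± 6.04 in KPC at day 21 (SD, n = 3 each). That ratio overlapped between the groups at day 14 and at day 26, where it ran from 13.0 to 14.3 in controls and from 13.7 to 119.9 in KPC. Anxa3 per 100 Dpp4 counts overlapped at days 21 and 26 but not at day 14, with 90.2 to 97.7 in controls and 108 to 125 in KPC. Over 4 ratios and 3 days, 12 two-sided exact permutation tests gave adjusted p-values of 0.171 or more. With these group sizes the smallest p each exact test allows is 0.0571 at days 14 and 26 and 0.1 at day 21, so none could pass 0.05.

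**Figure D3:**
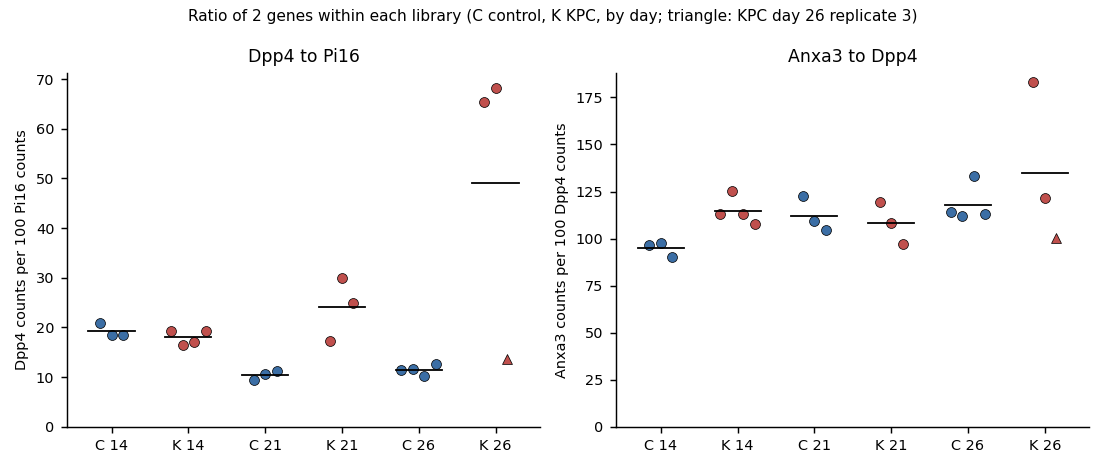
Dpp4 counts per 100 Pi16 counts (left) and Anxa3 counts per 100 Dpp4 counts (right) in each library; points are libraries, lines are group means, blue is control, red is KPC, and the triangle is KPC replicate 3 of day 26. Dpp4 to Pi16 is higher in all KPC libraries than in all controls at days 21 and 26, with the triangle near the controls, while Anxa3 to Dpp4 overlaps at those days and is higher in all KPC libraries at day 14.

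Of 20 further genes known from the same state, none was called at day 14 (median log2 -0.34), 8 fell and 2 rose at day 21 (median -0.61), and none was called at day 26 (median -0.996). The smallest p-values among those that fell were those of Fbn1, the microfibril protein fibrillin 1 (log2 -1.48 ± 0.17, adjusted p 0.000239), Pcsk6, a secreted proprotein convertase (log2 -0.96 ± 0.12, adjusted p 0.000449), and Emilin2, a matrix glycoprotein (log2 -0.88 ± 0.12, adjusted p 0.000885). The 2 that rose, Tnfaip6 and Has1, both act on hyaluronan. Tnfaip6 lay at 36.3, 52.9 and 50.5 CPM in controls and 159.6, 172 and 149 CPM in KPC at day 21 (log2 1.78 ± 0.14, adjusted p 2.53e-05), and Has1 at 46.6, 41.6 and 56.4 and 174, 128 and 163 CPM (log2 1.69 ± 0.15, adjusted p 4.24e-05). At day 14 both had lower means in KPC than in control, without a call.

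Of 14 genes of the Cxcl14/Smoc2-type state, 5 rose and 1 fell at day 21 (median log2 0.15), and none was called at day 14 (median 0.36) or day 26 (median 0.41). The smallest p-values were those of Cygb, the globin of fibroblasts (log2 1.01 ± 0.12, adjusted p 0.000302), Apod, a lipid-carrying lipocalin (log2 2.44 ± 0.24, adjusted p 0.000439), and Lpl, lipoprotein lipase (log2 1.04 ± 0.14, adjusted p 0.000687). Cxcl14 itself rose (log2 0.81 ± 0.14, adjusted p 0.00392), Smoc2 was not called (log2 -0.40 ± 0.13, adjusted p 0.073), and the gene that fell was Col15a1 (log2 -1.86 ± 0.42, adjusted p 0.0443), a basement-membrane collagen. The 8 of 20 and 1 of 14 lower stand beside 6.11% of all genes called lower at day 21, and the 2 of 20 and 5 of 14 higher beside 6.38% called higher. The 2 of 20 are near that share, and the difference between the lists was not tested.

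The ligands, receptors and partners of the 10 genes moved in both directions. Of 28 tested, 8 rose and 6 fell at day 21, and 1 rose at day 14. The shares of all genes were 6.38% higher and 6.11% lower at day 21 and 0.682% higher at day 14. Cxcl12, the ligand of Ackr3 and a substrate of Dpp4, rose at day 21 from 251, 278 and 231 CPM in controls to 571, 705 and 653 CPM in KPC (log2 1.34 ± 0.12, adjusted p 4.82e-05). Its signalling receptor Cxcr4 rose too, from and to low levels, 0.522 ± 0.259 and 2.98 ± 1.06 CPM (SD, n = 3 each; edgeR log2 2.51 ± 0.63, adjusted p 0.0226). The Dpp4 substrates Cxcl10 (log2 1.66 ± 0.38, adjusted p 0.0165) and Ccl11 (log2 0.51 ± 0.13, adjusted p 0.0254) rose at day 21. Among receptors of Sema3c, the neuropilins Nrp1 (log2 1.08 ± 0.18, adjusted p 0.00373) and Nrp2 (log2 1.16 ± 0.14, adjusted p 0.000398) rose at day 21 while Sema3c fell, and Plxnd1 rose at day 14 (log2 0.75 ± 0.12, adjusted p 0.0143) and was not called at day 21 (log2 0.11 ± 0.32, adjusted p 0.863). Matrix ligands of Cd248 fell with it, Fn1 by 0.97 and Col1a1 by 1.24 on the log2 scale (adjusted p 0.00311 and 0.00142). Its vascular partner Mmrn2, a protein of endothelial matrix, rose (log2 2.33 ± 0.40, adjusted p 0.00649). Markers of endothelial cells were higher in KPC at the same day, with 8 of 12 called higher and 1 lower, and their part in the values of Mmrn2, Nrp1 and Nrp2 was not tested.

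Relatives of the 10 genes went both ways. Of 36 tested paralogues and family members, 3 rose and 6 fell at day 21, and 1 rose and 1 fell at day 14. Beside these stand 6.38% of all genes called higher and 6.11% lower at day 21, and 0.682% and 0.435% at day 14. The 3 of 36 are near the share of all genes. Fap, the closest relative of Dpp4 and a marker of activated fibroblasts, was not called at day 14 (log2 0.11 ± 0.10, adjusted p 0.696), where Dpp4 fell, nor at day 21 (log2 -0.10 ± 0.12, adjusted p 0.656). Dact1 fell at day 21 as Dact2 did (log2 -0.57 ± 0.13, adjusted p 0.0147), and Dact3 rose at day 14 (log2 0.84 ± 0.12, adjusted p 0.00465). The annexins Anxa2, Anxa4, Anxa5 and Anxa6 fell at day 21, led by Anxa2 (log2 -1.04 ± 0.15, adjusted p 0.000947), although Anxa3 was not called. Of the other class 3 semaphorins, Sema3g (log2 2.17 ± 0.34, adjusted p 0.00226) and Sema3f (log2 1.53 ± 0.45, adjusted p 0.048) rose at day 21, opposite to Sema3c, and both lay at 24.1 CPM or less in every library of that day. Efhd2, the relative of Efhd1, was not called at day 21 (log2 -0.33 ± 0.14, adjusted p 0.154).

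Markers of the sorted cells were mixed at day 21, with 2 of 12 FAP identity genes rising (Osr1 and Dcn) and 5 falling. Over all genes, 6.38% were called higher and 6.11% lower at that day. Thy1 (log2 -1.73 ± 0.20, adjusted p 0.000723), Cd34 (log2 -1.14 ± 0.15, adjusted p 0.000541) and Col6a1 (log2 -1.27 ± 0.20, adjusted p 0.00266) fell with the members, while Pdgfra (log2 0.095 ± 0.11, adjusted p 0.629) and Ly6a (log2 0.004 ± 0.11, adjusted p 0.988) were not called. Over the 12 genes, 3 had a fold change above 0 at day 26, with a median log2 of -0.61 and no call. Their summed level, on the common scale, was 20785, 28252 and 38356 CPM in KPC replicates 1 to 3 of day 26 and 44519 to 55987 CPM in controls. It was lowest where the 10 genes were lowest, but such a sum mostly follows its most abundant genes and does not measure FAP identity as a whole. At day 21 it was 33118 to 35808 CPM in KPC and 48489 to 52061 CPM in controls, without overlap, and at day 14 the groups overlapped. Pdgfra, 1 of the 12, measured 1196, 1367 and 1405 CPM in KPC and 1241 to 1382 CPM in controls of day 26, in the scaling of that day. The part of the identity genes in the differences of the 10 genes was not tested.

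Over all 20 libraries the 10 genes ran together, as a description only. All 45 pairs had a Pearson r above 0 on log2 CPM, from 0.616 to 0.992 with a median of 0.894. Without the 2 libraries farthest from the median, KPC replicates 1 and 2 of day 26, 45 of 45 were still above 0 and the median was 0.705 over 18 libraries. Within the 10 controls, 29 of 45 pairs were above 0 and the median was 0.288. They ran from -0.569 (Dpp4 and Cd248) to 0.951 (Dact2 and Limch1). Dpp4 and Pi16, which name the state, had an r of -0.341 in controls. Dpp4 was below 0 there with every member but Sema3c (0.731) and Anxa3 (0.326), and Sema3c with every member but Dpp4. Libraries share a day, a scaling and a group, so an r over all of them includes the difference between KPC and control. The non-member genes most like the mean of the members, among 11307 candidates, were Fn1 (r 0.985 over 20 libraries and 0.749 over 10 controls), Pcsk6 (0.984 and 0.887), Igsf1 (0.979 and 0.826), Igfbp5 (0.979 and 0.801), Lgi4 (0.978 and 0.639) and Thy1 (0.978 and 0.528). Fn1, Pcsk6 and Thy1 are also on the lists above. Dpp4 was most like Efemp1 (0.984 and 0.907) and Tmeff2 (0.963 and 0.359), and the same 2 genes were the ones most like Anxa3. Over 20 libraries Pi16 was most like Fn1 and Pcsk6 (r over 10 controls 0.848 and 0.943). Sema3c was most like Cd55 and Stmn4 (0.423 and -0.383 over controls), so its likeness to Stmn4 did not hold within controls. Cd248 was most like Creb3l1 and Naaa (0.891 and 0.815 over controls). Efhd1 was most like Naaa and Adamts16 (0.849 and 0.802), and Dact2 like Fbn1 and Lgi4 (0.902 and 0.701).

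Markers of other cell types moved with some of these values (sums on the common scale). The day 26 sum of 12 endothelial markers was 1142, 338 and 432 CPM in KPC replicates 1 to 3 and 389 to 562 CPM in controls. That of 14 macrophage markers was 494, 46.0 and 28.2 CPM, against 19.2 to 30.8 CPM, and that of 10 mural-cell markers 547, 90.2 and 233.6 CPM, against 179 to 238 CPM. In replicate 1 all 3 sums were therefore higher than in any control. In replicate 2 the 10 genes were also far below control. Its endothelial and mural sums were lower, and its macrophage sum higher, than in every control of its day. A sum mostly follows its most abundant genes. In the fit of all KPC libraries of day 26, 11 of 12 endothelial markers had a fold change above 0 (median log2 2.46). Of 9 mural markers tested, 7 did (median 1.18), and none of either list was called. The adipocyte sum of 7 markers was 464, 20.3 and 0.859 CPM in KPC replicates 1 to 3 of day 26 and 0.0963 to 0.666 CPM in controls. Of 5 erythroid markers the 4 globin genes were at 0 in all libraries of each group, and Alas2, the other one, lay at 34.9, 22.4 and 2.73 CPM in these KPC libraries and 0.274 to 2.17 CPM in controls. Both were thus above every control in all 3 KPC libraries, and least so in replicate 3. The adipocyte sum of day 21 was 6.63 to 7.61 CPM in KPC and 0.519 to 1.04 CPM in controls, and Alas2 lay at 5.60 to 10.4 and 0.394 to 2.27 CPM, again without overlap. At day 21 the endothelial sum was 526 to 1032 CPM in KPC and 559 to 593 CPM in controls, and the myofibre sum of 15 markers 119 to 644 and 88.1 to 134 CPM. The highest endothelial and myofibre sums belonged to KPC replicate 1. That library had the highest Pi16, Cd248 and Dact2, and the lowest Dpp4 and Anxa3, of the 3 KPC libraries. In the fit without it the same 7 genes and Ackr3 were called, among 2644 genes in all. How these sums relate to the 10 genes was not tested. At day 14 the endothelial sum was 564 to 749.8 CPM in KPC and 415 to 495 CPM in controls, and the macrophage sum 26.9 to 58.0 and 17.7 to 23.8 CPM. The mural sum was 269.6 to 376 and 141 to 228 CPM, the glial sum of 8 markers 70.5 to 139 and 26.0 to 48.2 CPM, and the satellite-cell sum of 7 markers 63.8 to 87.1 and 49.4 to 58.1 CPM. All 5 of these sums were higher in every KPC library of day 14 than in every control, as Dpp4 was lower in every one. No endothelial or mural marker was at 0 in all libraries of a group, and the macrophage marker Fcgr1 was at 0 in all controls of days 14 and 21. Of 9 epithelial markers, 4, 4 and 5 were at 0 in all controls of days 14, 21 and 26, and 0, 4 (Krt8, Krt18, Cldn4 and Tff1) and 0 in all KPC libraries of those days. Their highest sums were 32.0 CPM in KPC replicate 2 of day 14 and 22.7 CPM in KPC replicate 1 of day 26, both above every control. The part of these other cells in the differences of the 10 genes was not tested.

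**Figure D4:**
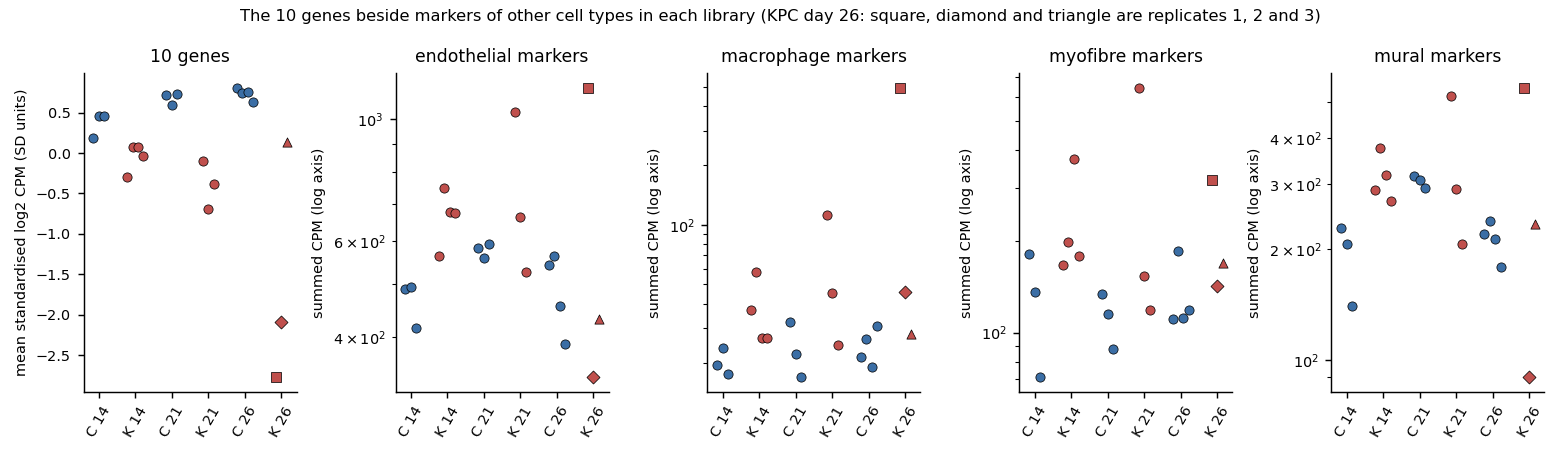
Mean standardised level of the 10 genes (left, in SD units of log2 CPM over 20 libraries) and summed CPM of the endothelial, macrophage, myofibre and mural markers (log axes) in each library; blue is control and red KPC, and for KPC day 26 the square, diamond and triangle are replicates 1, 2 and 3. The square is high in all 4 marker panels, while the diamond is nearly as low in the 10 genes. The endothelial and mural sums of the diamond are below all controls of its day, and its macrophage sum is above them.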

How the data were processed

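Stranded mRNA libraries (RNA integrity number 7 or above, paired reads of 59 bases) were deposited as raw counts per gene symbol, per the labels and from the whole numbers in the tables. Tools named in the submitters' processing notes are STAR, Bowtie, bcl2fastq 2.20, R 4.2.1 and DESeq2 1.36.0, with build mm10. Which program counted reads, with which annotation and whether by strand, is not given in the sources used here. Columns were matched to samples by library code. Each day was fitted alone in edgeR 4.0.16 (R 4.3.3) with TMM scaling, filterByExpr (minimum count 10, minimum total 15), and 2-sided tests from robust quasi-likelihood fits, adjusted by Benjamini-Hochberg over all genes tested. Contrasts between days came from 1 fit of all 20 libraries. The SE is the absolute log2 fold change over the square root of F. CPM values use the scaling of 1 day unless a common scale is named. Log2 CPM for correlations used a prior count of 2 and genes with a mean of at least 1. The p-values of the fits set a difference against the spread between libraries of the same group. In the fit of all 20 libraries that spread is taken over all groups.

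The 10 genes and all lists were chosen with earlier results of these data known. All 10 genes are named. Of other lists the called genes with the 3 smallest p are named, with relatives and partners of a member whether called or not, and, for likeness, 6 genes for the mean and 2 for a member. Tnfaip6, Has1, Cxcl14, Smoc2, Col15a1, Osr1, Dcn and the count ratios were chosen after their values were seen. Alternatives were other scalings, no filter, DESeq2 1.42.0, limma-voom (limma 3.58.1), 1 fit of all libraries, a replicate block, each library left out and, added later, libraries with code 227 alone. The day 14 and 21 tables each hold 25 date-like symbols, none a member. The edgeR fit was also tested on simulated data after its first run. The other marker lists were satellite cell, tenocyte, glial, mesothelial, erythroid and adipocyte. At day 26 the first 4 of these lists summed to 33.8 to 60.6 CPM in controls and 17.5 to 62.3 in KPC (satellite cell), 418 to 1208 CPM in controls and 509.8 to 1076 in KPC (tenocyte), 25.1 to 44.0 CPM in controls and 42.5 to 127 in KPC (glial) and 2.22 to 6.25 and 0.0589 to 4.52 (mesothelial).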

Additional observations from a re-analysis of the deposited data

Results flagged for a closer look

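The KPC effect on Ackr3 differed between day 14 and day 26 by the test of the difference itself, with a contrast of -1.12 ± 0.33 (log2, edgeR, adjusted p 0.0322). KPC libraries held 839 to 1085 CPM at day 14 and 369, 358 and 902 CPM at day 26, against 935 to 1008 and 1113 to 1306 CPM in the controls of those days. Without KPC replicate 1 of day 26 the contrast was -0.90 (adjusted p 0.0706), and without replicate 2 it was -0.91 (adjusted p 0.102). The call was lost in 10 of the 14 fits that left out 1 library of either day. Of all genes, 14.3% were called in this contrast, and Ackr3 was the 1 member of 10, which is near that share.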

How the results depend on the processing

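At day 14 the 149 called genes became 278 with no filter, 558 with DESeq2, 660 with limma-voom, 2 when all libraries were fitted together and 361 with the replicate block, and the 1 called member became 2, 2, 4, 0 and 1. At day 21 the 1643 genes and 7 members became 436 and 1 when all libraries were fitted together, and 1545 and 8 with the replicate block. At day 26 the 0 genes and 0 members became 2762 and 4 with DESeq2 (no adjusted p for Pi16, Sema3c, Cd248 and Efhd1, here or in its contrasts between days), 4578 and 10 with limma-voom, 4889 and 10 in that joint fit, 6287 and 10 among libraries with code 227 (an alternative added after seeing the data), and stayed at 0 with the replicate block. Leaving out 1 library gave 40 to 255 genes and 0 to 2 members at day 14, 717 (without control 1; 766 and 853 without controls 2 and 3) to 2644 (without KPC replicate 1) genes and 6 to 8 members at day 21, and 0 to 6972 genes and 0 to 10 members at day 26, the highest without KPC replicate 3. The low counts of day 14 came without control 3 (40), KPC replicate 2 (41), KPC replicate 1 (62) and KPC replicate 3 (92), and the high one without KPC replicate 4 (255).

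The KPC effect of 0, 1 and 0 members differed between days 14 and 21, 14 and 26, and 21 and 26, and limma-voom called 4, 9 and 8. Leaving out 1 library of the 2 days compared gave 0 to 0, 0 to 10 and 0 to 9, the last 2 highest without KPC replicate 3 of day 26. That library stayed in every fit behind the first range, so 0 to 0 does not show how far that result depends on it. Between controls, limma-voom called 3 members from day 14 to 21 and 5 from day 14 to 26, and DESeq2 called 1 from day 14 to 21. Leaving out 1 control library of the 2 days compared gave 0 to 0 in each, with all KPC libraries kept in the fit. Directions turned in 3 values, none of them called by the main test. Ackr3 at day 14 was 0.011 with the replicate block and 0.014 without KPC replicate 4, within a range of -0.11 to 0.014 over the 7 libraries left out. The day 21 to 26 contrast of Dact2 was -0.012 with library size alone, -1.69 with limma-voom (adjusted p 0.0416) and -0.41 with the block, and that of Limch1 -0.37 with limma-voom and -0.10 with the block. The cause was not tested. Same-numbered control and KPC libraries had deviations that correlated from -0.115 to 0.147, so the numbers were not taken as pairs.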
